A study of Mus musculus with 2 samples.

Results

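The genes of the visual cycle and of retinoid carriage Rlbp1, Rbp3, Abca4, Rgr, Rdh5 and Ttr were followed in RNA of degenerative and normal mouse cornea. Members were the spots whose deposited name equalled 1 of these symbols, ignoring case. Each of the 6 symbols had 1 spot, and no other spot carried a synonym of them. On each array, all 6 spots had a channel over the background limit, and 7896 named genes, members included, passed this filter. The tissues were spontaneously degenerative corneas and normal corneas of BALB/c mice, an albino strain, in which a single eye was affected. No age, genotype or pooling of mice is given in the labels. Both RNAs were hybridised together on 2 two-colour arrays, with the degenerative cornea in Cy5 on array 1 and in Cy3 on array 2. This dye swap counts as 1 replicate, so the SD of the 2 arrays (n = 2) measures technical spread only and no p-value is given. The genes were chosen with their ratios on these arrays known, and their values are therefore given as a description, with no test.

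The visual cycle rebuilds the light-sensitive chromophore of the opsins, which is bleached from its cis to its all-trans form by light. All-trans retinal leaves the photoreceptor discs, is reduced, crosses the extracellular matrix to the retinal pigment epithelium, and is there esterified, isomerised and oxidised back to cis-retinal. Mueller glia, the radial support cells of the retina, hold some of the same retinoid-binding proteins. None of these cell types belongs to the cornea, a transparent tissue of epithelium, stroma and endothelium.

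The label of the tissue was checked first. Krt12 and Aldh3a1, the keratin and the crystallin-like enzyme of corneal epithelium, were saturated in both tissues on both arrays, so corneal RNA was plentiful in each and their own ratios are compressed. Retinal transcripts were also present, most of all in the RNA labelled normal cornea. Of 9 measured lens genes 5 were at least 2-fold higher in the degenerative cornea on each array, where 0.317% of all genes were. This is the opposite direction to the members. The part of carried-over retina or lens tissue in the results below was not tested. In such bulk RNA, fewer cells of a type and less RNA per cell cannot be told apart.

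Promoter sequences are shown for the 4 members with the lowest ratios, to let motifs of retinal factors be compared between genes that were lower together. The windows run from 250 bases before to 50 bases after the start site, 5′ to 3′ on the gene's strand, and come from RefSeq (GRCm38.p6), whose table matched 5 of the 6 members. For Rlbp1, Abca4 and Rdh5 the whole window lies inside the gene's RefSeq span. The bases around the 5′ end of that span were therefore not searched for these genes. Capitals mark matches, on either strand, to TAATCC (the core read by CRX and OTX2), CTAATTA (a homeodomain core), or CATGTG and CACGTG (E-boxes of the kind read by MITF). Rlbp1 (chr7:79386978-79387277, minus strand) and Rbp3 (chr14:33953753-33954052, plus strand) were the members with the lowest ratios. Abca4 (chr3:122044210-122044509, plus strand) and Rgr (chr14:37048965-37049264, minus strand) followed them in the order of ratios.
Rlbp1: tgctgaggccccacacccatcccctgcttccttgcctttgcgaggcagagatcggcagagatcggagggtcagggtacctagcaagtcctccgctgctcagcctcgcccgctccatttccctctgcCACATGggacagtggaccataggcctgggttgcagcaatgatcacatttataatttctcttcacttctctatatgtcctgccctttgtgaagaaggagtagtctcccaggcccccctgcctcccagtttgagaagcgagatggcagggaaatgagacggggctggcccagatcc
Rbp3: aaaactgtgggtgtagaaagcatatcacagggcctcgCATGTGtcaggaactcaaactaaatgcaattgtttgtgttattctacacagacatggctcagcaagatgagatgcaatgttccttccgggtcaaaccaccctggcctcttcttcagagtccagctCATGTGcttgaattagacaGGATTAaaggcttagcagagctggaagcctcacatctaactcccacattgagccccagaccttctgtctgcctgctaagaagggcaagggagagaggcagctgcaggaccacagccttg
Abca4: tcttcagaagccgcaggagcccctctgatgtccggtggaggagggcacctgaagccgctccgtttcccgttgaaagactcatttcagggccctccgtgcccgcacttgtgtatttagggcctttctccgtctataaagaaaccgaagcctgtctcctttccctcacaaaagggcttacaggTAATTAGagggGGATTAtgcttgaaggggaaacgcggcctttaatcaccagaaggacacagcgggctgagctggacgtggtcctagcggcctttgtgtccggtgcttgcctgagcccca
Rgr: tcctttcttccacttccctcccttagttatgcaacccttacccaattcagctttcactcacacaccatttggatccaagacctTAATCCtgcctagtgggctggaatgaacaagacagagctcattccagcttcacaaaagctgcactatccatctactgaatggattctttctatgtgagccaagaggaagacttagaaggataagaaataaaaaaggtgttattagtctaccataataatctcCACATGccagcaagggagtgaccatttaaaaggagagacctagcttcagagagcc
TAATCC was found in 3 of the 5 member windows, 69 bases before the start site in Rbp3, 58 in Abca4 and 167 in Rgr, and it occurs in 7.16% of 27025 windows taken as 1 per gene. CTAATTA was found in Abca4, 69 bases before the start site and separate from the TAATCC match, and occurs in 2.04% of windows. CATGTG was found in Rlbp1, in Rgr and at 2 places in Rbp3, against 14.1% of all windows, and CACGTG (7.24% of windows) in none of the 5. The Rdh5 window held none of the 4 motifs. These matches are letters in a window and are no evidence of binding.

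Rlbp1 encodes the cellular retinaldehyde-binding protein, which holds cis-retinoids in pigment epithelium and Mueller glia. Its intensity on array 1 was 640 in degenerative and 2760 in normal cornea, and on array 2 it was 799 and 1866. The degenerative value lay below the normal value on each array, although the degenerative channel on array 2 was only 1.01 times its background limit. Both degenerative values lay under a stricter limit, the 95th percentile of the spots named Empty (1033 and 1886 on arrays 1 and 2). The deposited log2 ratio of degenerative over normal was -1.90 on array 1 and -2.05 on array 2. The mean of -1.97 ± 0.11 (SD, n = 2 arrays) corresponds to a 3.93-fold lower signal and was the seventh lowest of the 7896 genes.

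Rbp3 encodes the interphotoreceptor retinoid-binding protein, which photoreceptors secrete into the matrix between themselves and the pigment epithelium. Its intensities in degenerative cornea were 705 and 759 on arrays 1 and 2, against 1860 and 1781 in normal cornea. Degenerative cornea had the lower value on each array, and on array 2 its channel was just under the background limit, at 0.963 times. The log2 ratios were -1.23 and -1.48, with a mean of -1.36 ± 0.18, a 2.56-fold lower signal at place 40 from the lowest. The ratio of array 2 rests on a degenerative level with only an upper limit, and the mean and fold include it.

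Abca4 encodes the transporter that clears retinal from the outer-segment discs of photoreceptors. Its intensities were 2499 and 2506 in degenerative cornea and 5231 and 5199 in normal cornea, on arrays 1 and 2. The arrays repeated each other closely, and each degenerative value was 3.18 times its background limit or more. The log2 ratios were -0.91 and -0.94 (mean -0.93 ± 0.03, 1.90-fold lower, place 77), just short of a 2-fold difference.

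Rgr encodes an opsin of pigment epithelium and Mueller glia that takes up all-trans retinal. It measured 1939 and 2317 in degenerative cornea and 3324 and 3126 in normal cornea. The degenerative values were again below the normal values on both arrays, by a smaller margin. The log2 ratios were -0.67 and -0.62, with a mean of -0.65 ± 0.03 (1.57-fold lower, place 146).

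Rdh5 encodes the cis-retinol dehydrogenase of pigment epithelium, which carries out the last oxidation of the cycle. Its intensities were 1484 and 1380 in degenerative cornea, against 2387 and 1982 in normal cornea. Degenerative cornea had the lower value on each array, with log2 ratios of -0.53 and -0.60 and a mean of -0.57 ± 0.05 (1.48-fold lower, place 180).

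Ttr encodes transthyretin, a carrier of thyroid hormone and of retinol-binding protein that is made in liver, choroid plexus and pigment epithelium. It measured 8520 and 9618 in degenerative cornea and 13784 and 14921 in normal cornea, at least 12.2 times the background limit in every channel. The log2 ratios were -0.63 and -0.55, with a mean of -0.59 ± 0.05 (1.51-fold lower, place 173). Its ratio lay with those of Rgr and Rdh5, above those of the photoreceptor genes.

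**Figure D1:**
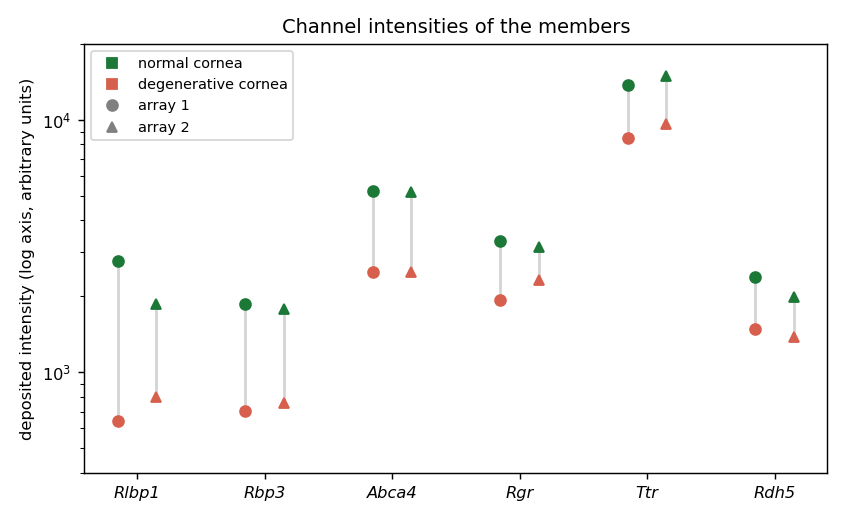
Deposited intensity (log axis, arbitrary units) of each member in normal (green) and degenerative (red) cornea, with array 1 as circles and array 2 as triangles. For every member the degenerative value lies below the normal value on each array, as for 22.5% of 8956 named probes. The gap is widest for Rlbp1 on array 1 (640 against 2760). Intensities of different probes are not comparable with each other.

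A gene was called lower if its log2 ratio was -1 or less on each array, which means at least 2-fold, and called higher by the same rule with the sign turned. Of the 6 members 2 were called lower, Rlbp1 and Rbp3, where 0.709% of the 7896 genes were, and none was called higher, where 0.317% of genes were. The choice of members used these ratios, so nothing is read from that count. All 6 members had log2 ratios of -0.5 or less on each array, as did 1.94% of all genes, and were lower in deposited intensity on each array, as were 22.5% of 8956 named probes. The median of the 7896 genes was 0.0081, and 5% of them lay below -0.39.

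**Figure D2:**
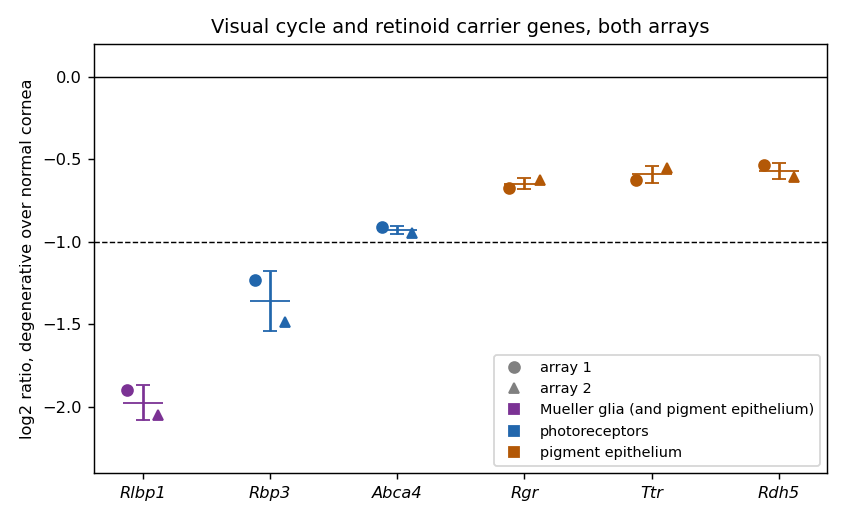
Deposited log2 ratio (degenerative over normal cornea) of each member on array 1 (circles) and array 2 (triangles), with the mean and SD of the 2 arrays as the horizontal bar and error bar, coloured by the cell type known for each gene. The dashed line is the 2-fold limit of -1, below which Rlbp1 and Rbp3 lie on each array, and the 3 pigment epithelium genes lie between -0.67 and -0.53.

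Grouped by cell type, the photoreceptor genes Rbp3 and Abca4 had a mean log2 ratio of -1.14, with -1.07 on array 1 and -1.21 on array 2. The genes grouped as pigment epithelium, Rgr, Rdh5 and Ttr, had a mean of -0.60 (-0.61 and -0.59) and spanned only 0.077 between them. Rlbp1, the gene grouped with Mueller glia, lay lowest at -1.97. The photoreceptor mean lay between the others, and differed from the pigment epithelium mean by -0.46 on array 1 and -0.62 on array 2. In the deposited ratios, Rlbp1 differed from the pigment epithelium mean by -1.29 and -1.46, and from the photoreceptor mean by -0.83 and -0.84. Rlbp1 and Rgr are each known from both Mueller glia and pigment epithelium, so these groups overlap in their biology, and Rgr stood with the pigment epithelium genes and not with Rlbp1.

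In the order of ratios, Rlbp1 and Rbp3 differed by 0.62, Rbp3 and Abca4 by 0.43, and Abca4 and Rgr by 0.28, and in each of these pairs the values of the arrays did not overlap. Rgr and Ttr differed by 0.057 and Ttr and Rdh5 by 0.021, with overlapping arrays, and Ttr and Rdh5 changed places between the arrays. The difference between arrays was 0.153 for Rlbp1 and 0.255 for Rbp3, where the 500 genes nearest to each in signal had median differences of 0.152 and 0.164. It was 0.036 for Abca4, 0.047 for Rgr, 0.070 for Rdh5 and 0.073 for Ttr, below the medians of their own 500 nearest genes (0.092 to 0.147). The steps between Rgr, Ttr and Rdh5 were thus smaller than those medians, though the step from Rgr to Ttr exceeded the difference between arrays of Rgr itself.

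**Figure D3:**
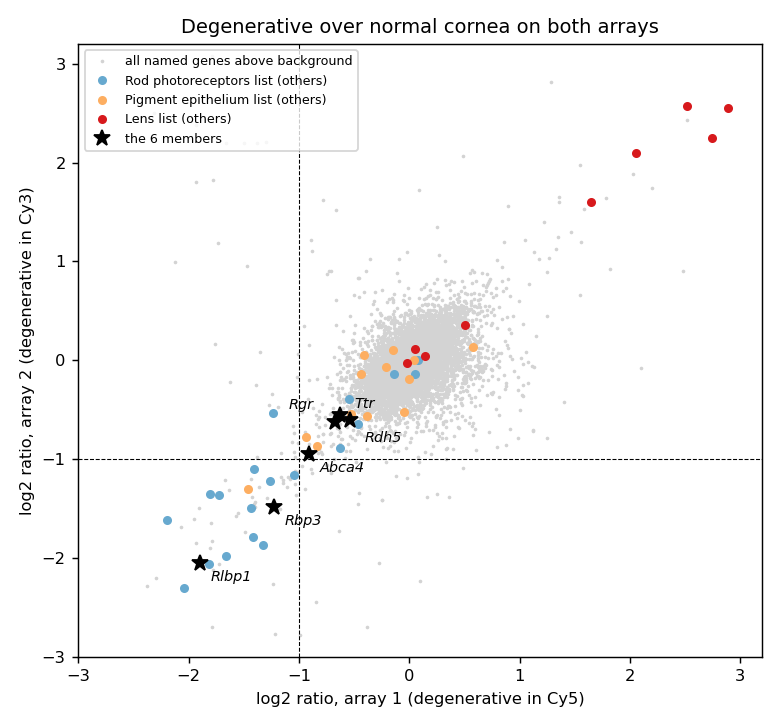
Log2 ratio of degenerative over normal cornea on array 1 (x axis) against array 2 (y axis) for the 7896 named genes (grey), 9 of which lie outside the plotted range, with the other genes of the rod, pigment epithelium and lens lists in colour and the 6 members as stars. Rlbp1 and Rbp3 lie beyond -1 (dashed lines) on both axes among rod genes, and Rgr, Ttr and Rdh5 lie together near -0.6.

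The values of the members depended on the normalization. Before normalization the log2 ratio of Rlbp1 was -2.11 on array 1 and -1.22 on array 2. A print-tip loess computed here gave -1.80 and -1.65, and a loess over the whole array -1.90 and -1.52, where Rbp3 had -1.17 and -1.54. On array 2 under that loess, and under the median-centred raw ratio (-1.77 for each gene), Rlbp1 and Rbp3 were therefore level. As a mean of both arrays, Rlbp1 was lower than Rbp3 under all 4 normalizations, with a difference of -0.62 to -0.35. Over the same 4, the photoreceptor mean minus the pigment epithelium mean was -0.60 to -0.54, and Rlbp1 minus the photoreceptor mean was -0.83 to -0.48. On array 2 the latter was -0.84 as deposited, -0.38 with print-tip loess, -0.16 with the whole-array loess and -0.082 with the centred raw ratio. Abca4 passed the 2-fold rule under the print-tip loess (-1.02 and -1.09) and not in the deposited ratios. The centred raw ratio, which leaves in the dependence on signal and dye, put Ttr at -0.080 on array 1 and -1.18 on array 2, and Rdh5 at -0.071 and -1.07.

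**Figure D4:**
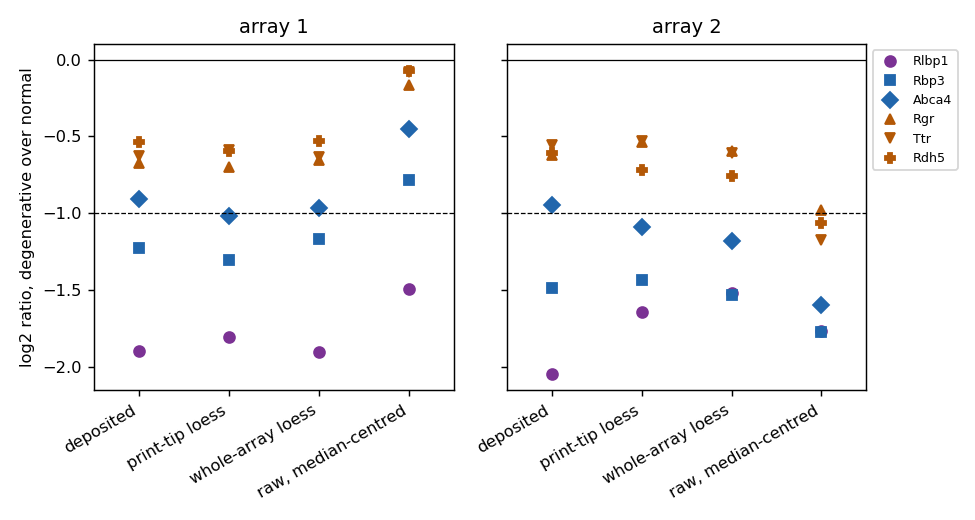
Log2 ratio of the 6 members on array 1 (left) and array 2 (right) in the deposited values, after print-tip loess, after loess over the whole array and as the median-centred raw ratio. The dashed line marks -1. Rlbp1 and Rbp3 coincide on array 2 under the last 2 of these, and all 6 members lie below 0 throughout.

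The wider pathway was read from a list of 54 visual cycle and retinoid genes, which includes the 6 members. Of these, 47 had a probe and 30 were above background. The list had 5 genes called lower, the members Rlbp1 and Rbp3 among them, and none called higher. Over all genes 0.709% were called lower and 0.317% higher. Its median log2 ratio was -0.13, and without the 6 members 3 of 24 genes were called lower and the median was -0.081, against 0.0081 over all genes. The list's median was -0.38 with the limit at the 95th percentile of the Empty spots, -0.23 without a filter and -0.29 on array 2 alone. Below 0 on each array were 17 of the 30 genes (32.9% of all genes), and above 0 on each array were 6 (34.6% of all genes). The 17 include the 6 members, which were chosen with their ratios known. Without them 11 of 24 genes were below 0 and 6 above 0 on each array.

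Among enzymes and opsins of chromophore turnover, 8 of 20 listed genes were measured and 1 was called lower. This was Rdh11, a retinol dehydrogenase found in photoreceptors and pigment epithelium, with intensities of 2179 and 2208 in degenerative and 6381 and 6343 in normal cornea. Degenerative cornea had the lower value on each array, and the log2 ratio of -1.44 ± 0.06 was a 2.71-fold lower signal. This ratio lay close to that of Rbp3 (-1.36) and below that of Rdh5 (-0.57). Bco1, which cleaves beta-carotene to retinal, had a ratio of -0.38 ± 0.08, and Rdh14, another retinol dehydrogenase, -0.24 ± 0.16, neither of which was called. The isomerase Rpe65 and the esterase Lrat, which define the cycle in pigment epithelium, were not above background, as was also true of Rrh, an opsin related to Rgr.

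Of 18 listed retinoid-binding and transport proteins 14 were measured, and Rlbp1 and Rbp3 were the 2 called lower. Ptgds, a lipocalin that binds retinoids and is also made by keratocytes, had a ratio of -0.93 ± 0.0037 and Lpl, a lipase that helps take up retinyl esters, -0.75 ± 0.17. Neither was called, and Lpl passed the limit for degenerative cornea on array 1 only. Without the members, the 10 remaining genes had a median of -0.010, with 5 below 0 and 4 above 0 on each array. Among opsins of photoreceptors Opn1sw, the short-wavelength cone opsin, was called lower (-2.25 ± 0.07). On both arrays its degenerative channel was under the background limit (273 and 390, against 1799 and 1631 in normal cornea), so its level there has only an upper limit and no fold is given. Opn1mw, the other cone opsin, had 0.12 on array 1 and -0.40 on array 2.

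Of 12 listed genes that make, degrade or read retinoic acid, 5 were measured and none was called in either direction. Their median was -0.040, but its sign depended on the setting, with 0.14 on array 1 alone, 0.22 with the limit at the 95th percentile of the Empty spots, 0.092 with both channels above background and -0.17 without a filter. Aldh1a3, which oxidises retinal to retinoic acid, had a ratio of 0.31 ± 0.16 and the receptor Rarg, expressed in epithelia, 0.22 ± 0.02. The receptor Rxrb had -0.12 ± 0.08, and Rxra, above background in each tissue on 1 array, had 0.065 and -0.72 on arrays 1 and 2.

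Marker lists of the cell types that hold the members gave the setting of these values. The shares called over all genes, 0.709% lower and 0.317% higher, are the background for the count of each list. The rod list had 21 of 27 genes measured, and 13 of them were called lower, with a median of -1.25. Leaving out Abca4 and Rbp3, 12 of 19 were called lower and the median was the same. Summed over 20 unsaturated probes without the members, the intensity of rod genes was 123178 and 119524 in degenerative cornea and 257385 and 234813 in normal cornea. The largest part of this sum came from Gnb1 (47201 and 40823 in degenerative, 50256 and 49507 in normal cornea), whose ratio was -0.14. Rbp3 (-1.36) lay close to the rod median and Abca4 (-0.93) above it. Sag, the rod arrestin (-1.94 ± 0.18), Gngt1, a rod transducin subunit (-1.91 ± 0.41), and Aipl1, a photoreceptor chaperone that passed the limit for degenerative cornea on 1 array (-1.82 ± 0.23), were among the lowest of this list. In the cone list 2 of 5 measured genes were called lower, where 0.709% of all genes were. Both called genes were under the limit for degenerative cornea on both arrays, so they were kept through normal cornea only. The list's median was -0.75, but -0.15 with both channels above background, -0.30 without a filter and -1.49 with the limit at the 95th percentile of the Empty spots.

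The pigment epithelium list had 17 of 27 genes measured, with a median of -0.48. Without its 4 members, 13 genes remained with a median of -0.28, of which 8 were below 0 on each array and 1 was called lower. That gene was Otx2, a homeodomain factor of photoreceptors and pigment epithelium, at -1.38 ± 0.11. Its intensities were 645 and 887 in degenerative and 2188 and 1961 in normal cornea, without overlap. The melanogenic genes Tyrp1 (-0.86 ± 0.11) and Dct (-0.85 ± 0.02), which iris and choroid also express, lay near Abca4 and below Rgr, Rdh5 and Ttr. Summed over 14 probes without the members, the list had 35190 and 41259 in degenerative cornea and 56698 and 54715 in normal cornea. The largest part of this sum came from Dct (11639 and 10848 in degenerative, 22086 and 20511 in normal cornea). Tyrp1 added 4487 and 5460 in degenerative and 8463 and 8132 in normal cornea. As iris and choroid also express both genes, the sum does not measure pigment epithelium alone. Besides Rpe65, Lrat and Rrh, the pigment epithelium genes Best1, Slc16a8, Cldn19, Tyr and Sulf1 were not above background.

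In the Mueller glia list 13 of 20 genes were measured, and their median was 0.0087, with a range of -0.14 without a filter to 0.047 with both channels above background. Rlbp1 (-1.97) lay well below it. Without Rlbp1 the median was 0.047, with 4 genes below 0 and 4 above 0 on each array. Car2, a carbonic anhydrase of Mueller glia and of other eye tissues, was the remaining gene called lower, at -1.95 ± 0.24, with 323 and 544 in degenerative and 1529 and 1202 in normal cornea. Its degenerative channel passed the limit on array 1 only. Apoe, an apolipoprotein, had -0.53 ± 0.03. Notch1, above background in each tissue on 1 array, had 0.53 ± 0.47. The glial genes Glul, Slc1a3, Kcnj10, Gpr37, Abca8a and Gfap were not above background, so the defining enzymes and channels of these cells gave no ratio here. Over 13 unsaturated probes without Rlbp1, the summed intensity was 139133 and 136981 in degenerative cornea and 163586 and 156796 in normal cornea. The largest intensities in this sum were those of Apoe, Cd9, Hes1 and Clu (40106, 27432, 26406 and 20696 in degenerative cornea on array 1). Clu is also in the corneal epithelium list, so the sum does not measure Mueller glia alone.

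Ttr was also set beside other tissues that make it. In the list of ciliary and iris epithelium and choroid plexus 9 of 14 genes were measured, and their median was -0.40 with and without Ttr. Otx2 was its called gene, Enpp2, a secreted lysophospholipase, had -0.54 ± 0.0054, and Wfdc1, under the limit for degenerative cornea on both arrays, had -0.47 ± 0.05. The liver and plasma list had 5 of 15 genes measured, none of them called. Without Ttr its median was -0.021, and Trf, transferrin, had -0.35 ± 0.04. The plasma proteins Alb, Apoa1, Apoa2 and Ahsg were not above background, and neither was Rbp4, the plasma retinol carrier that Ttr binds. Ttr (-0.59) was thus below the median of both lists.

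Of 9 measured inner retinal neuron genes 4 were called lower, where 0.709% of all genes were, and the median was -0.38. It was -0.78 with both channels above background and -1.79 with the limit at the 95th percentile of the Empty spots. The genes called lower included Pcp2 of bipolar cells (-1.88 ± 0.27), Thy1 of ganglion cells (-1.70 ± 0.29) and the synaptic gene Snap25 (-1.48 ± 0.23). Over 4 measured melanocyte genes the median was -0.52, with no call, and it was -0.24 without a filter and -0.86 with the 95th percentile limit. The corneal lists had no called gene, with a median of 0.12 over 10 epithelial genes, of which 5 were saturated, and -0.17 over 5 stromal genes. In the lens list 5 of 9 genes were called higher, where 0.317% of all genes were, and the median was 1.63.

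**Figure D5:**
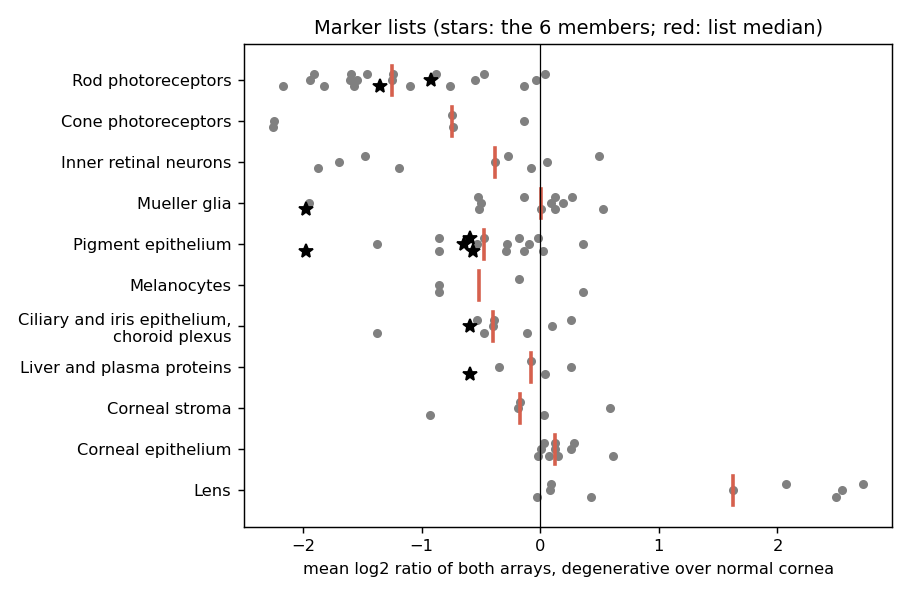
Mean log2 ratio of both arrays for every measured gene of 11 marker lists, with the 6 members as stars (a member in several lists is drawn in each) and list medians in red. The rod list has a median of -1.25. Rlbp1 and Car2 lie far below the median of the measured Mueller glia genes (0.0087). That median lacks Glul, Slc1a3, Kcnj10, Gpr37, Abca8a and Gfap, which were not above background. Rgr, Rdh5 and Ttr lie below the median of the pigment epithelium list, which is -0.48 with the members and -0.28 without them.

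Genes with the most similar pair of ratios were found by Euclidean distance over the 2 arrays. Nearest to the median of the 6 members (-0.79 and -0.78) were Rtn2 (distance 0.040), Ms4a6d (0.044), Pdxp (0.083), Rab3a (0.094) and Dct (0.099). Nearest to Rlbp1 was Sag (0.084), nearest to Rbp3 was Bex2 (0.062), and nearest to Abca4 was Ptgds (0.029). Srpx2 (0.0061) lay nearest to Rgr, Timm8b (0.036) to Rdh5 and Kctd14 (0.030) to Ttr. With 2 values per gene, such distances describe these arrays only.

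The members lay in 6 different print blocks, in which the median log2 ratio of the kept probes was between -0.053 and 0.042. In the block of Rlbp1, 1 and 2 of 334 kept probes were lower on arrays 1 and 2, and in that of Rbp3 none of 320 was. Over the arrays as a whole, 113 to 131 of the 632 spots named Empty were above the limit in each channel. Of the 6 blocks, 5 held Empty spots, none of them above the limit, and the block of Rgr held none. With the limit at the 95th percentile of the Empty spots, Rlbp1 and Rbp3 were kept through normal cornea only. No member was saturated in any channel. Each member rests on a single probe, and the files do not say which transcript isoforms a probe detects.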

How the data were processed

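Per the labels' protocols, Trizol-extracted total RNA was cleaned up, amplified and labelled with 2 dyes. The authors deposited, per the file headers, a Cy5 and a Cy3 intensity for each of 37632 spots, and a normalized ratio, degenerative over normal, on the log2 and the linear scale. Intensities reach below 0, so a background had been subtracted. The scanner, background method and normalization were not given in the sources used here. Ratios were taken as deposited. The series' value table held the same ratios.

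Control spots (1780) were left out, and 35852 gene probes remained, of which 14894 were kept and 8956 of these were named. Names were updated through RefSeq symbols (GRCm38.p6). A channel was above background if it exceeded 632 Empty spots by 3 scaled median absolute deviations over their median, which gave limits of 290.0 and 788.5 for degenerative and 569.5 and 373.2 for normal cornea on arrays 1 and 2. Precision is limited by the 2 arrays and by signal over background. A probe was kept with 1 channel above its limit on each array, and kept probes of a gene were averaged. A channel at 98% of its maximum or more was called saturated. The members and lists were chosen with earlier results of these data known, and the rule for the genes named was written with them. It takes the members, called genes and up to 4 uncalled genes of each retinoid role, up to 4 markers a list, and the genes nearest in ratio. A gene of these lists is not reported here. The calls were tested on simulated ratios with noise of the same size for all genes. The simulation had no background floor and no dye effect, so it does not cover dim genes. Loess alternatives used limma 3.58.1 in R 4.3.3, and other steps Python 3.11.15, numpy 2.4.6 and pandas 2.3.3.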

Additional observations from a re-analysis of the deposited data

How the results depend on the processing

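No member changed direction under any alternative, and the mean of both arrays moved most for Rlbp1. Its mean log2 ratio was -1.71 with a loess over the whole array, -1.72 with a print-tip loess and -1.63 with the centred raw ratio, against -1.97. Under the same 3 settings Abca4 had -1.07, -1.05 and -1.02, against -0.93. Rdh5 had -0.64 and -0.66 with the loess fits, against -0.57, and Rgr -0.57 with the centred raw ratio, against -0.65. Array 1 and array 2 alone are the values printed for each member, with ranges of -2.05 to -1.90 for Rlbp1, -1.48 to -1.23 for Rbp3, -0.94 to -0.91 for Abca4, -0.67 to -0.62 for Rgr, -0.60 to -0.53 for Rdh5 and -0.63 to -0.55 for Ttr. The members called lower numbered 2, but 1 when both channels had to be above background, which leaves out Rbp3, 1 with the centred raw ratio, 3 with the print-tip loess and 4 at a log2 limit of 0.58. The retinoid list had 5 genes called lower, 3 with both channels above background, 3 with the centred raw ratio and 9 at a limit of 0.58.

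Over all genes, 56 were called lower and 25 higher. Lower and higher calls numbered 34 and 16 with a background limit at the 95th percentile of the Empty spots, 130 and 179 without a filter, and 120 and 61 at a limit of 0.58. With both channels required 30 genes were lower, and with the centred raw ratio 37. On a single array 85 to 91 were lower and 49 to 55 higher. The cause of these moves was not tested, except that the filters change which genes are tested. No paired analysis was possible because there is 1 group of 2 dye-swapped arrays. Medians of short lists moved with the background filter. Besides those printed with their lists, the retinoid-binding and transport proteins had -0.76 with the 95th percentile limit, against -0.093, the pigment epithelium list -0.29 without a filter, against -0.48, and the liver and plasma list -0.23 on array 2 and 0.029 on array 1, against -0.082. List medians without the 6 members, an alternative chosen after seeing the data, are given with each list.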
